A study of Bos taurus with 48 samples.

Results

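Liver gene expression 28 d after calving was compared between dairy cows that calved fatter (B5F125) and cows that calved thinner (B4F125) after both groups had been overfed before calving. The comparison used the 12 two-colour arrays, of 48 in the series, on which both channels held liver RNA taken at 28 d. B5F125 cows were managed to a body condition score (BCS) of 5 and B4F125 cows to a BCS of 4, on a scale in which low scores mark thin cows and high scores mark fat cows. Both groups were given 125% of their estimated energy requirement over the last weeks before calving. The other groups on the same arrays, B5F75 and B4F75, had the same BCS classes and were given 75% of requirement. Biopsies were taken at −7, 7 and 28 d from calving, so the 28 d samples came after the different prepartum rations had ended. Each group had 8 cows in the series and 6 on the 28 d arrays, 24 cows in all, and each of the 24 was on 1 array only. All were grazing cows of mixed breed, and the study's methods give group averages of age and breed that differ, but not the values of each cow, so BCS cannot be told apart from age or breed in these samples.

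BCS is a visual and manual score of body fat. After calving, milk output exceeds feed intake and fat is released from adipose tissue, and the liver oxidises the incoming fatty acids, turns part of them into ketone bodies, and stores or exports the rest as triglyceride. Over the same weeks the ruminant liver makes nearly all of the glucose that the udder uses, mainly from propionate and amino acids, while growth hormone signalling through IGF1 is low and acute phase proteins are often raised.

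The 12 arrays covered all 6 pairings of the 4 groups, with 2 arrays per pairing in opposite dye orientation. Each group was therefore in the Cy5 channel 3 times and in the Cy3 channel 3 times. The 2 arrays that held a B5F125 cow with a B4F125 cow measured the difference directly (direct arrays 1 and 2). On 8 further arrays a cow of 1 of these groups was paired with an F75 cow, and 2 held F75 cows alone. The difference was taken from 1 linear model over the 12 arrays (limma, with a dye term), and is given as log2 fold change (FC), B5F125 minus B4F125, so that a positive value means higher in B5F125. Genes with an unadjusted p-value of at most 0.01 and an FC of at least 1.5 are called differentially expressed genes (DEG). These are the thresholds of the study's methods, and they do not correct for multiple testing.

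Neither the deposited table nor the methods state which channel is the numerator of the ratio. Ratios were read as Cy5 over Cy3, which is an assumption. Under it, the signs of the study's own gene lists were not counted here. Of 9 genes whose change at calving is well known, 7 went the other way and 2 did not. This was by their mean on the arrays that held 7 d with −7 d samples. Each array across days paired different cows, so a difference between cows enters its value. Haptoglobin (HP) averaged −2.91 for 7 minus −7 d and was above 0 on 1 of 4 arrays, whereas IGF1 averaged 1.19 and was above 0 on 4 of 4. PDK4 and CPT1A, known to be higher after calving, averaged 0.67 (above 0 on 4 of 4 arrays) and 0.09 (3 of 4). For 28 minus −7 d, 7 of the 9 genes again went the other way. There PDK4 averaged −0.49 (above 0 on 1 of 4 arrays) and CPT1A −0.08 (2 of 4). On the opposite reading every sign in the text is turned, and sizes and p-values are unchanged.

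Blank spots made up 13.5% of the values of the 28 d arrays (1.42 to 18.7% per array). Of the values that were not blank, 40.5% (31.7 to 45.2% per array) were exact ratios of whole numbers no larger than 20. This is the form that a dim spot with few intensity units in both channels takes. These dim values had an SD of 1.06 around their array's median, against 0.60 for the other values. A total of 13990 genes measured on at least 9 arrays were tested.

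At 28 d, 67 genes (0.479% of those tested) were higher in B5F125 than in B4F125 and 72 (0.515%) were lower, 139 DEG in all (0.994%). On values as deposited, with arrays not centred, 44 were higher and 91 lower. The p threshold alone passed 153 genes (1.09%), a share near the 1% that it passes where no gene differs, and 755 genes (5.4%) were below 0.05 before adjustment. No gene had an adjusted p below 0.05 (limma, Benjamini-Hochberg). The median absolute log2 FC of the DEG was 1.03, against 0.17 over all genes tested, a contrast that the FC threshold itself sets. Genes with mostly dim values held more of the DEG: 85 of 4919 (1.73%) passed among genes with over 50% of their values dim, and 54 of 9071 (0.595%) among the others.

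The 10 named genes of smallest p among those higher in B5F125 had log2 FC between 0.76 and 2.11. Their values on single arrays, given here as a description, are those whose fit chose them, so that a like sign or a lack of overlap is no separate support, and the same holds for the lower genes. TMEM194A, a protein of the nuclear envelope, was 2.92-fold higher (log2 FC 1.54, SE 0.25, adjusted p = 0.319, limma), with 1.92 and 1.84 on the direct arrays. Its ratios against F75 cows, 0.25, −0.16, 0.82 and 0.78 in B5F125 cows and −1.44, −1.66, 0.47 and −0.50 in B4F125 cows, overlapped, and 90% of its 28 d values were dim. CDA, the cytidine deaminase of pyrimidine salvage, was 2.01-fold higher (log2 FC 1.01, SE 0.18, adjusted p = 0.554, limma). Against F75 cows, CDA was at 0.49, 0.38, −0.18 and 0.59 in B5F125 cows and at −0.80, −0.76, −0.32 and −0.70 in B4F125 cows, and the direct arrays gave 0.67 and 1.42. The groups did not overlap, and the B5F125 cow was higher on both direct arrays.

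TKT, the transketolase of the pentose phosphate pathway, was 2.16-fold higher in B5F125 (log2 FC 1.11, SE 0.22) and had no dim values. Its direct arrays gave 1.18 and 0.99. Against F75 cows it was at −0.38, 0.82, −0.70 and 0.75 in B5F125 cows and at −1.11, −0.54, −0.55 and −1.88 in B4F125 cows, and the groups overlapped. SLC16A7, a carrier of lactate, pyruvate and ketone bodies, was 1.81-fold higher (log2 FC 0.86, SE 0.18), with 0.97 and 0.32 on the direct arrays. Its ratios against F75 cows did not overlap, at 0.11, 0.38, 0.20 and 0.51 in B5F125 cows and −0.79, −1.31, −0.55 and −0.41 in B4F125 cows. DHRS13, of the short-chain dehydrogenase family, had a log2 FC of 0.76 (SE 0.17) and was at 0.87 and 0.70 on the direct arrays.

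The remaining genes among the 10 had more uneven values. MYL9, a myosin light chain of smooth muscle, had a log2 FC of 1.18 (SE 0.25), but its direct arrays gave 2.55 and 0.31, and 1 of its 2 probes gave 0.15 on its own. SMARCD3, a subunit of the SWI/SNF chromatin remodelling complex, had a log2 FC of 1.45 (SE 0.30) with direct arrays of opposite sign, 3.09 and −0.45. PLCB1, a phospholipase C of receptor signalling (1.99, SE 0.37), CDK17, a cyclin-dependent kinase (2.11, SE 0.40), and RASSF4, of the Ras association family (2.11, SE 0.41), were each measured on 9 arrays, with 88.9, 88.9 and 100% of values dim. Without the direct arrays the estimate for PLCB1 was 0.70. Adjusted p for these 8 genes below TMEM194A and CDA was 0.776 (limma).

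Among genes lower in B5F125, SERPINB9, an inhibitor of granzyme B, had the smallest adjusted p of all genes (2.57-fold lower, log2 FC −1.36, SE 0.20, adjusted p = 0.208, limma). The direct arrays gave −1.54 and −1.78. Against F75 cows SERPINB9 was at −0.57, −0.60, −0.41 and −0.27 in B5F125 cows and at −0.18, 0.45, 1.15 and 1.00 in B4F125 cows, with no overlap. It was a dim gene (95.5% of values). HDC, which makes histamine from histidine, was 2.08-fold lower (log2 FC −1.06, SE 0.25) and had no dim values. HDC ratios against F75 cows were 0.14, −0.17, 0.40 and −0.08 in B5F125 cows and 0.54, 1.02, 0.98 and 0.72 in B4F125 cows, also without overlap, and the direct arrays gave −2.13 and −0.62.

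SULT1B1, a sulphotransferase acting on thyroid hormone and phenols, was lower by the same amount on both direct arrays (−1.07 and −1.06), with a log2 FC of −0.96 (SE 0.23). Its ratios against F75 cows, −0.61, −0.10, −0.21 and 0.21 in B5F125 cows and 0.27, −0.10, 1.96 and 0.53 in B4F125 cows, overlapped. PFKFB4, which sets the level of the glycolytic activator fructose 2,6-bisphosphate, had a log2 FC of −1.86 (SE 0.39). It was measured on 1 of the direct arrays, at −3.29, and 94.1% of its values were dim. PFKFB4 ratios against F75 cows did not overlap, at 0.30, −0.34, −0.07 and −0.61 in B5F125 cows and 0.71, 1.93, 0.73 and 0.82 in B4F125 cows. BCAS1 had a log2 FC of −0.96 (SE 0.21), with −1.50 and −0.70 on the direct arrays, and SMARCA1, an ATPase of chromatin remodelling, had −0.81 (SE 0.19).

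The other lower genes among the 10 were the cation channel TRPC6 (−1.46, SE 0.31), the sperm calcium channel subunit CATSPER3 (−2.08, SE 0.43), the mitotic motor CENPE (−1.60, SE 0.34) and FICD (−1.18, SE 0.28), which modifies the endoplasmic reticulum chaperone HSPA5. TRPC6, CATSPER3 and CENPE were measured on 10, 9 and 9 arrays, and between 83.3 and 100% of the values of all 4 genes were dim. Of the 20 genes of smallest p, 18 stayed DEG when any 1 of the 12 arrays was left out. The same arrays chose these genes, so this is no separate support. Leaving out an array on which a gene was blank left its own values unchanged. SMARCA1 passed no more without direct array 1 (log2 FC −0.65), and FICD without direct array 2 (−0.77).

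**Figure D1:**
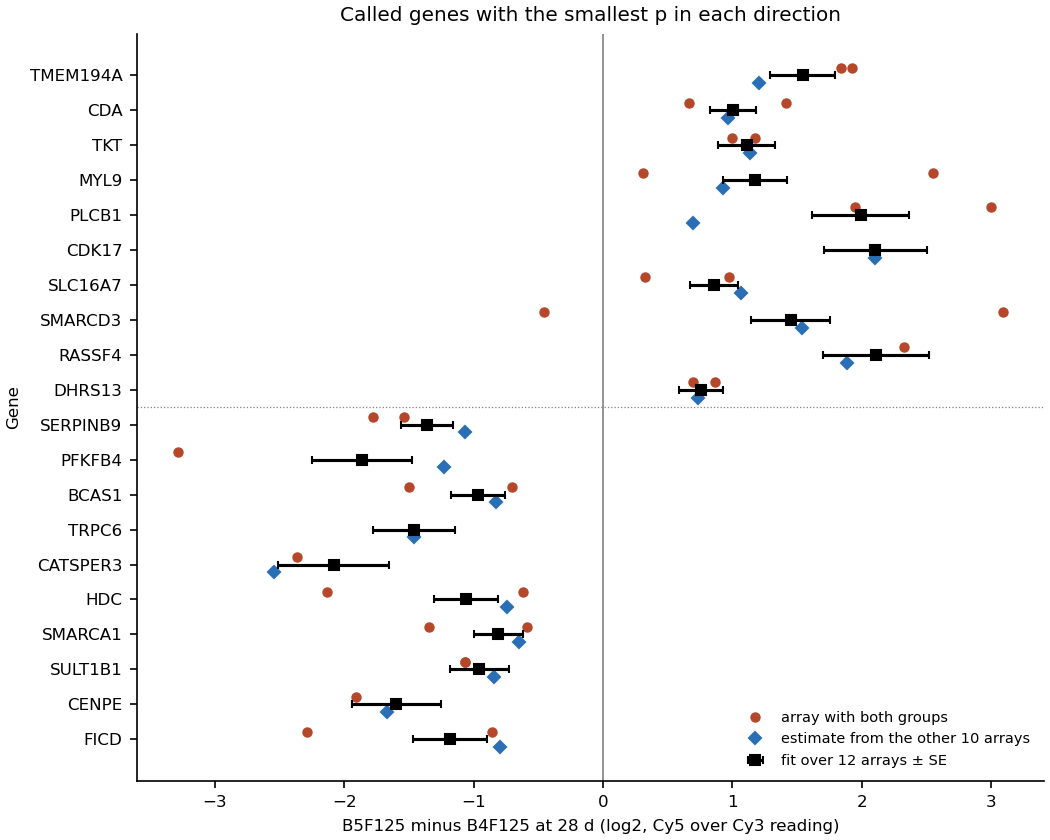
Log2 FC of B5F125 minus B4F125 at 28 d (horizontal axis) for the 10 named genes of smallest p in each direction (vertical axis), showing the value over the 12 arrays with its SE, the values of the direct arrays and the estimate from the other 10 arrays. Most symbols of a gene lie on 1 side of 0, SMARCD3 being an exception with direct arrays at 3.09 and −0.45.

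**Figure D2:**
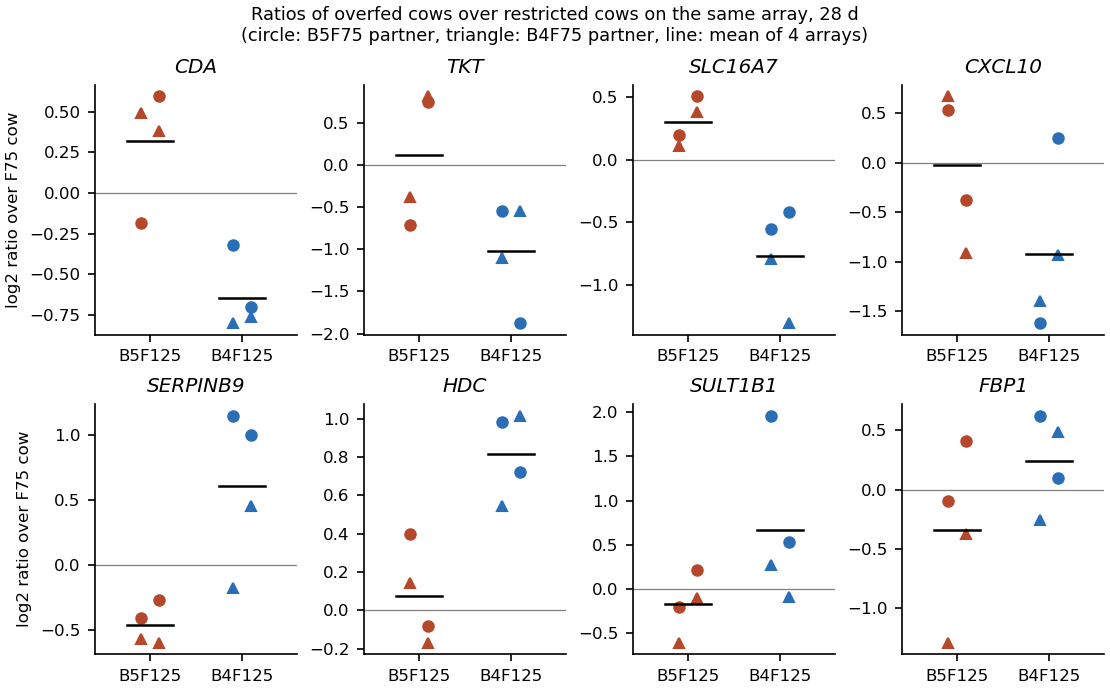
Log2 ratio to the F75 cow on the same array (vertical axis) for 8 genes, with 4 B5F125 ratios at the left of each panel and 4 B4F125 ratios at the right. The groups do not overlap for CDA, SLC16A7, SERPINB9 and HDC, and they overlap for TKT, CXCL10, SULT1B1 and FBP1.

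The direct arrays and the other 10 arrays share no cow of B5F125 or B4F125, and the estimates from each were set side by side. Across the 13073 genes measured on both direct arrays, direct and indirect estimates had the same sign in 46.4% of genes and Pearson's r was −0.04 (Spearman's rho −0.07). Among the genes with at most 50% dim values r was −0.05. The direct arrays 1 and 2 had the same sign in 44.8% of genes (r −0.14). These arrays are in opposite dye orientation and their values carry no dye term, so a dye effect of a gene enters them with opposite signs, and it cannot be told apart here from a difference between the pairs of cows. These correlations are across genes, which are not independent replicates, within arrays that each hold 1 cow per group.

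Among DEG measured on both direct arrays, 101 of 110 had both direct arrays on the side of 0 that the 12 arrays gave, against 4739 of 13073 genes in all, and 138 of 139 had the same sign in the indirect estimate, against 10367 of 13990. Both estimates are parts of the value that chose the DEG, so these counts follow in part from the choice. Ratios against F75 cows did not overlap between the groups for 23 of 93 DEG with all 8 ratios, where 2.24% of all genes had no overlap. Without the direct arrays 137 genes passed the thresholds, of which 43 were among the 139.

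**Figure D3:**
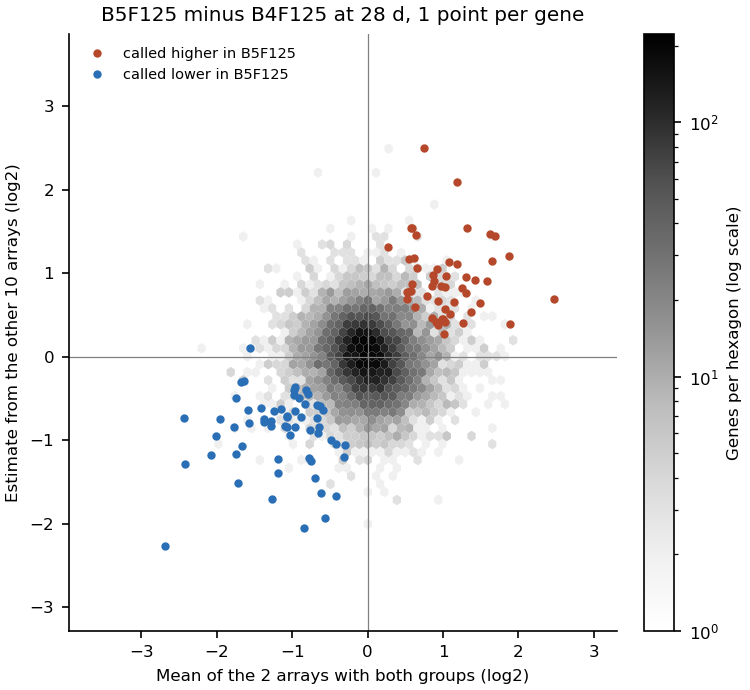
Mean of the direct arrays (horizontal axis) against the estimate from the other 10 arrays (vertical axis), both log2 FC of B5F125 minus B4F125 at 28 d, with genes binned in hexagons and the DEG as coloured points. The cloud of all genes shows no slope (r −0.04), while the DEG lie in the quadrants where both estimates have 1 sign, as their choice entails.

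Gene lists were described by counts and medians beside those of all 13990 genes, of which 7290 were above 0 (median log2 FC 0.01). Most genes of fatty acid oxidation had values slightly below 0, and none was a DEG. Of 20 genes of mitochondrial fatty acid oxidation 3 were above 0 (median −0.16), and of 14 genes of peroxisomal oxidation 2 (median −0.19). In cows fed 75% the medians were −0.16 and −0.18, and at −7 d they were −0.0018 for the mitochondrial and 0.19 for the peroxisomal genes. CPT1A, which admits long-chain fatty acids to mitochondria, was at −0.30 (SE 0.13), the carnitine carrier SLC22A5 at −0.51 (SE 0.23), the peroxisomal oxidase ACOX2 at −0.51 (SE 0.21) and the peroxisomal transporter ABCD3 at −0.40 (SE 0.20). On the direct arrays 5 of 20 mitochondrial and 5 of 14 peroxisomal genes were above 0, and in the indirect estimate 5 of 20 and 2 of 14. Over the 25 alternative settings the median was −0.22 to −0.09 for the mitochondrial and −0.30 to −0.12 for the peroxisomal genes. Most settings reuse the same arrays, so the kept sign is no separate support.

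Of 20 genes of the fatty acid sensor PPARA and its targets, 3 were above 0 (median −0.31). CPT1B, the muscle form of the mitochondrial entry enzyme, was a DEG (log2 FC −0.90, SE 0.24), which it was not without direct array 2 (−0.74). ANGPTL4, a secreted inhibitor of lipoprotein lipase and a target of PPARA, was at −2.08 and −2.13 on the direct arrays but at 0.04 in the indirect estimate, and its log2 FC of −1.03 (SE 0.54) was no DEG. FGF21, the fasting hormone of the liver, was at 0.22 (SE 0.57), with ratios against F75 cows that spread over −1.77, 0.38, −2.33 and −1.22 in B5F125 cows and −3.25, −0.58, −1.38 and 1.03 in B4F125 cows.

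Genes of fatty acid synthesis and desaturation lay mostly on the other side, with 12 of 18 above 0 (median 0.40, and 0.16 to 0.56 over the settings) and no DEG. THRSP, which promotes lipogenic gene activity, had the largest value in the list, 2.07 (SE 0.67). THRSP ratios against F75 cows were −1.16, 1.92, −1.08 and 1.98 in B5F125 cows and −2.71, −2.38, −2.47 and −2.89 in B4F125 cows, so that the groups did not overlap, yet the direct arrays were at 2.62 and −0.40. SCD, the stearoyl-CoA desaturase, was at 1.54 (SE 0.61) with 4.31 and −0.21 on the direct arrays, and fatty acid synthase (FASN) was at 0.67 (SE 0.37) with 1.70 and −0.40. In all 3 genes direct array 1 gave a large positive value and direct array 2 a small negative one. The NADPH-supplying malic enzyme ME1 was at −0.61 (SE 0.59).

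Of 27 genes of triglyceride synthesis and storage 6 were above 0 (median −0.19), but without the direct arrays the median was 0.09. The lipid droplet coat gene PLIN2 was at −1.59 and −2.09 on the direct arrays and at −0.17 in the indirect estimate (log2 FC −1.005, SE 0.39). PLIN1, the coat protein of adipocyte droplets, was at −1.06 (SE 0.35), with non-overlapping ratios against F75 cows of −0.86, 0.35, 0.66 and 0.11 in B5F125 cows and 1.03, 1.34, 1.37 and 1.45 in B4F125 cows, and 94.4% of its values were dim. DGAT1, which adds the last acyl group to triglyceride, was at 0.13 (SE 0.26).

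Of 23 genes of apolipoproteins and VLDL assembly 7 were above 0 (median −0.22, direct −0.42, indirect −0.03). APOA4, an apolipoprotein that accompanies triglyceride export, was a DEG (3.05-fold lower, log2 FC −1.61, SE 0.47, adjusted p = 0.849, limma). Its ratios against F75 cows were −1.77, −0.57, 0.40 and 2.12 in B5F125 cows and −0.52, 2.20, 3.67 and 0.88 in B4F125 cows, and overlapped, with −2.42 and −1.004 on the direct arrays. It missed the thresholds without any of 6 arrays, namely both B5F125 with B4F75 arrays (−1.51 and −1.48), B4F125 with B4F75 array 2 (−1.53), direct arrays 1 and 2 (−1.57 and −1.58) and B5F75 with B4F125 array 1 (−1.46). APOA1, the main protein of HDL, was at −0.87 (SE 0.31) and APOB, the backbone of VLDL, at −0.20 (SE 0.18).

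Of 21 genes of cholesterol synthesis 16 were above 0 (median 0.21), with no DEG, and the median was −0.06 without direct array 1. PMVK, the phosphomevalonate kinase, was at 0.39 (SE 0.20). CYP7A1, the first enzyme of bile acid synthesis, was at −0.49 (SE 0.38).

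Among 21 genes of gluconeogenesis and glucose release 7 were above 0 (median −0.12). FBP1, the fructose 1,6-bisphosphatase, was the DEG of this list (1.54-fold lower, log2 FC −0.62, SE 0.20). FBP1 was at −1.29, −0.37, −0.10 and 0.41 in B5F125 cows and −0.25, 0.48, 0.62 and 0.10 in B4F125 cows against F75 cows, which overlap, and at −1.25 and −0.09 on the direct arrays. It missed the thresholds without any of 9 of the 12 arrays, at log2 FC between −0.71 and −0.50, and kept them without B5F75 with B4F75 array 1 or either of the B5F125 with B5F75 arrays. The cytosolic PEP carboxykinase gene PCK1 was at −0.32 (SE 0.31) and pyruvate carboxylase (PC) at −0.52 (SE 0.40).

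Among 13 genes of the urea cycle and ammonia 7 were above 0, and ARG2, the mitochondrial arginase, was a DEG (2.55-fold lower, log2 FC −1.35, SE 0.39). ARG2 was at −1.43 and −2.49 on the direct arrays. It missed the thresholds without B5F125 with B4F75 array 1 (−1.16), B4F125 with B4F75 array 1 (−1.31), direct array 1 (−1.30) or direct array 2 (−0.94). CPS1, the first enzyme of the cycle, was at −0.11 (SE 0.19). Of 30 other genes of amino acid breakdown 6 were above 0 (median −0.09), with the serine and glycine enzymes SHMT2 at −0.77 (SE 0.27) and AMT at −0.37 (SE 0.18) and no DEG.

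GSTT1, a glutathione S-transferase, was the DEG among 13 genes of its family (1.58-fold lower, log2 FC −0.66, SE 0.21), of which 5 were above 0. GSTT1 was at −1.33 and −0.60 on the direct arrays, and −0.36 in the indirect estimate. It stayed a DEG without B5F125 with B4F75 array 1, B5F75 with B4F75 array 1 or B4F125 with B4F75 array 1, and missed the thresholds without any of the other 9 arrays, at log2 FC between −0.70 and −0.48. In the growth hormone and IGF axis 9 of 21 genes were above 0, and the insulin receptor gene INSR was a DEG (1.53-fold lower, log2 FC −0.61, SE 0.17). INSR missed the thresholds without B4F125 with B4F75 array 2 (−0.58), direct array 2 (−0.52) or B5F125 with B5F75 array 2 (−0.55), and 62.1% of its values were dim. IGF1 was at −0.23 (SE 0.23) and the growth hormone receptor GHR at −0.29 (SE 0.55).

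Acute phase proteins were above 0 in 21 of 25 genes (median 0.17, and 0.08 to 0.35 over the settings), with 14 of 25 above 0 on the direct arrays (median 0.03) and 20 of 25 in the indirect estimate (median 0.32). The list mixes proteins that rise in an acute phase response with others that fall in it. Among those that fall, ALB was at −0.36, TTR at 0.16, RBP4 at 0.10, AHSG at 0.01 and TF at 0.00. The counts over the list are therefore no measure of such a response. FETUB, a liver-secreted fetuin, was the DEG of this list (1.90-fold higher, log2 FC 0.92, SE 0.27), with ratios against F75 cows of 0.62, −0.54, −0.56 and 0.55 in B5F125 cows and −1.18, −1.27, −0.69 and −0.73 in B4F125 cows, which do not overlap. FETUB missed the thresholds without B5F125 with B4F75 array 1 (0.85), either of the B4F125 with B4F75 arrays (0.83 and 0.89), direct array 1 (0.82) or B5F125 with B5F75 array 2 (0.77). HP varied most between cows, at 2.95, 2.35, 3.12 and 1.18 in B5F125 cows and 3.01, −3.62, −3.16 and 0.53 in B4F125 cows against F75 cows and at −0.20 and −1.85 on the direct arrays, and its log2 FC of 1.09 had an SE of 1.02. The iron hormone HAMP was at −0.11 (SE 0.28) and fibrinogen FGB at 0.44 (SE 0.23).

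Genes of the interferon response were above 0 in 33 of 37 cases (median 0.29), with 34 of 37 above 0 in the direct arrays (median 0.48) and 21 of 37 in the indirect estimate (median 0.06). CXCL10, an interferon-induced chemokine, was a DEG (2.37-fold higher, log2 FC 1.24, SE 0.32, adjusted p = 0.8, limma). CXCL10 was at 2.56 and 0.60 on the direct arrays, and at 0.67, −0.92, 0.53 and −0.37 in B5F125 cows and −1.39, −0.93, −1.63 and 0.25 in B4F125 cows against F75 cows, with overlap. It missed the thresholds without direct array 1 (0.91). Its family members CXCL9 and CXCL11, picked here after their values were seen, were at 1.21 (SE 0.72) and 1.16 (SE 0.62). The immunoproteasome gene PSMB8 was at 0.56 (SE 0.18), with ratios against F75 cows of 0.23, 0.01, 0.25 and 0.06 in B5F125 cows and −1.14, −0.41, −0.14 and −0.34 in B4F125 cows that did not overlap. Of 21 genes of class I and class II antigen presentation 15 were above 0 (median 0.18), and the nonclassical class I gene BOLA-NC1 was at 0.74 (SE 0.28).

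The values are ratios between liver samples, so they cannot check the tissue label. Markers of liver cell types are described only as differences between the groups. Hepatocyte markers were centred on 0, with 10 of 19 above 0 (median 0.00). In a biopsy, fewer cells of a type and less RNA per cell cannot be told apart. Of 16 endothelial markers 3 were above 0 (median −0.22), and 0 of 16 in the indirect estimate (median −0.46), against 9 of 16 on the direct arrays (median 0.08). ERG, an endothelial transcription factor, was at −0.68 (SE 0.24) and LYVE1, a marker of sinusoidal endothelium, at −0.48 (SE 0.20), and neither was a DEG. The part of this difference in the results for other genes was not tested.

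Macrophage markers were at a median of 0.05 (9 of 16 above 0), with a direct median of 0.36 and an indirect median of −0.25. TIMD4, a marker of resident Kupffer cells, was at 0.48 (SE 0.26) and the receptor adaptor TYROBP at 0.21 (SE 0.19). Lymphocyte and plasma cell markers were above 0 in 14 of 16 genes (median 0.14), beside the interferon genes that were mostly above 0, and their part in that result was not tested. The T cell chemokine CCL5 was a DEG (1.65-fold higher, log2 FC 0.72, SE 0.21), with 1.09 and 0.91 on the direct arrays, and missed the thresholds without B5F125 with B4F75 array 1 (0.71), direct array 1 (0.68), direct array 2 (0.57) or B5F75 with B4F125 array 2 (0.68). Of 17 stellate cell and fibroblast markers 12 were above 0, and THY1 (−0.98, SE 0.24) and RGS5 (−1.05, SE 0.29), surface and signalling genes of mesenchymal cells, were DEG that were lower. Dim values made up 64.7% of those of THY1 and 100% of those of RGS5, and RGS5 was measured on 11 arrays. THY1 missed the thresholds without direct array 1 (−0.84), and RGS5 without B5F125 with B4F75 array 1 (−0.94), direct array 1 (−1.03) or B5F75 with B4F125 array 2 (−0.97).

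Cytosolic ribosomal protein genes lay on opposite sides of 0 in the direct and the indirect estimate. Of 64 genes 56 were above 0 over the 12 arrays (median 0.11), 63 of 64 in the indirect estimate (median 0.37), but 12 of 64 on the direct arrays (median −0.17). RPL22 was at 0.20 (SE 0.16), and no gene of the list was a DEG. Without B5F75 with B4F125 array 2 the median over the remaining arrays was −0.0048. Of the 43 lists 22 had a median above 0.

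**Figure D4:**
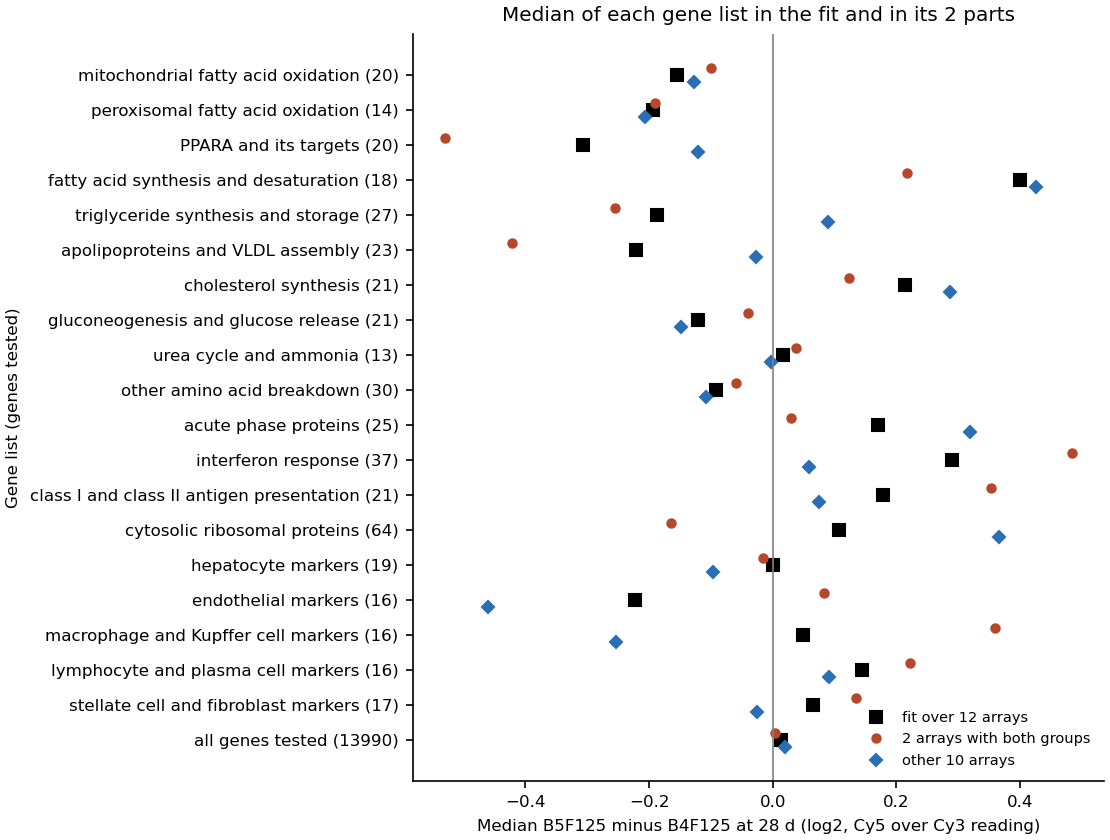
Median log2 FC of B5F125 minus B4F125 at 28 d (horizontal axis) for the gene lists (vertical axis), over the 12 arrays, on the direct arrays and in the estimate from the other 10 arrays. PPARA and fatty acid oxidation lists are below 0 in all 3 estimates, while ribosomal, endothelial and macrophage lists change side between the direct and the indirect estimate.

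The same arrays gave the difference between BCS classes in cows that had been fed 75% of requirement (B5F75 minus B4F75). There 62 genes passed the thresholds (0.443%), 35 higher and 27 lower, with 0 of adjusted p below 0.05 and 454 (3.25%) below 0.05 before adjustment (limma). The difference between the BCS effects of the feeding levels, the interaction, passed in 115 genes (0.822%), again with 0 of adjusted p below 0.05 (limma) and 577 (4.12%) below 0.05 before adjustment. CDA was at −0.20 (SE 0.18) in the F75 comparison, SLC16A7 at −0.12 (SE 0.18) and TKT at 0.00 (SE 0.22), and all 3 passed for the interaction (1.21, 0.97 and 1.12). HDC was at 0.21 (SE 0.25) in the F75 comparison and INSR at 0.23 (SE 0.17), both with an interaction that passed (−1.27 and −0.84). CXCL10 was at −0.49 (SE 0.32), with an interaction of 1.74 (SE 0.46), and PSMB8 at −0.40 (SE 0.18), with 0.95 (SE 0.25).

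For other genes the values in cows fed 75% were on the same side. CPT1B was at −0.62 (SE 0.24) there, APOA4 at −1.12 (SE 0.47) and SULT1B1 at −0.64 (SE 0.23), none of them a DEG, and none of these 3 passed for the interaction. The interaction contains the difference among overfed cows that chose the DEG, and both differences come from shared arrays, so an interaction among the DEG is partly set by their choice. By list, the median among restricted cows was −0.32 for PPARA and its targets (3 of 20 above 0), −0.17 for fatty acid synthesis (7 of 18) and −0.08 for the interferon response (15 of 37).

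The difference between B5F125 and B4F125 was also measured at −7 and 7 d, on 12 arrays each, from the same cows. At −7 d 123 of 13887 genes passed the thresholds (0.886%), 72 higher and 51 lower, and at 7 d 72 of 13300 (0.541%), 42 higher and 30 lower, with 0 genes of adjusted p below 0.05 on either day (limma). Before adjustment, 800 genes (5.76%) at −7 d and 413 (3.11%) at 7 d were below 0.05. Of the 120 DEG of 28 d that were also tested at −7 d, 3 were DEG there, against 106 of 13455 genes tested on both days. At 7 d it was 3 of 109, against 66 of 13061. Across genes, the log2 FC at 28 d had an r of 0.11 with that at −7 d and 0.18 with that at 7 d, and 0.19 and 0.33 among genes with at most 50% dim values. The days share cows, so such likeness may be that of the cows as well as of their groups, and the genes are not independent replicates.

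GSTT1 was a DEG on all 3 days, at −0.63 (SE 0.16) at −7 d, −0.74 (SE 0.17) at 7 d and −0.66 (SE 0.21) at 28 d. SULT1B1 was at 0.00 (SE 0.32), −0.76 (SE 0.23) and −0.96 (SE 0.23), and passed at 7 and 28 d. APOA4 was at −1.04 (SE 0.43), −0.83 (SE 0.56) and −1.61 (SE 0.47), below 0 on each day. TMEM194A, by contrast, was a lower DEG at −7 d (−0.80, SE 0.22), at 0.15 (SE 0.53) at 7 d and a higher DEG at 28 d (1.54, SE 0.25).

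Named genes that passed before 28 d but not at 28 d were BOLA-NC1 at −7 d (1.14, SE 0.21), FASN at −7 d (0.69, SE 0.20) and IGF1 at 7 d (−1.23, SE 0.32). The change of the difference between days was tested with cow pair as a block. From −7 to 28 d it passed in 100 of 13494 genes (0.741%), with 0 of adjusted p below 0.05 (limma) and 610 (4.52%) below 0.05 before adjustment. From 7 to 28 d it passed in 122 (0.904%), 548 (4.06%) were below 0.05 before adjustment, and 1 gene (0.00741%) had an adjusted p below 0.05 (limma). That gene was PFKFB4, at −0.33 (SE 0.20), 1.38 (SE 0.52) and −1.86 (SE 0.39) on the 3 days, with a change from 7 to 28 d of −3.38 (SE 0.59, adjusted p = 0.0497, limma). PPARA and its targets had a median of −0.09 at −7 d, −0.21 at 7 d and −0.31 at 28 d, and acute phase proteins −0.21, 0.42 and 0.17.

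**Figure D5:**
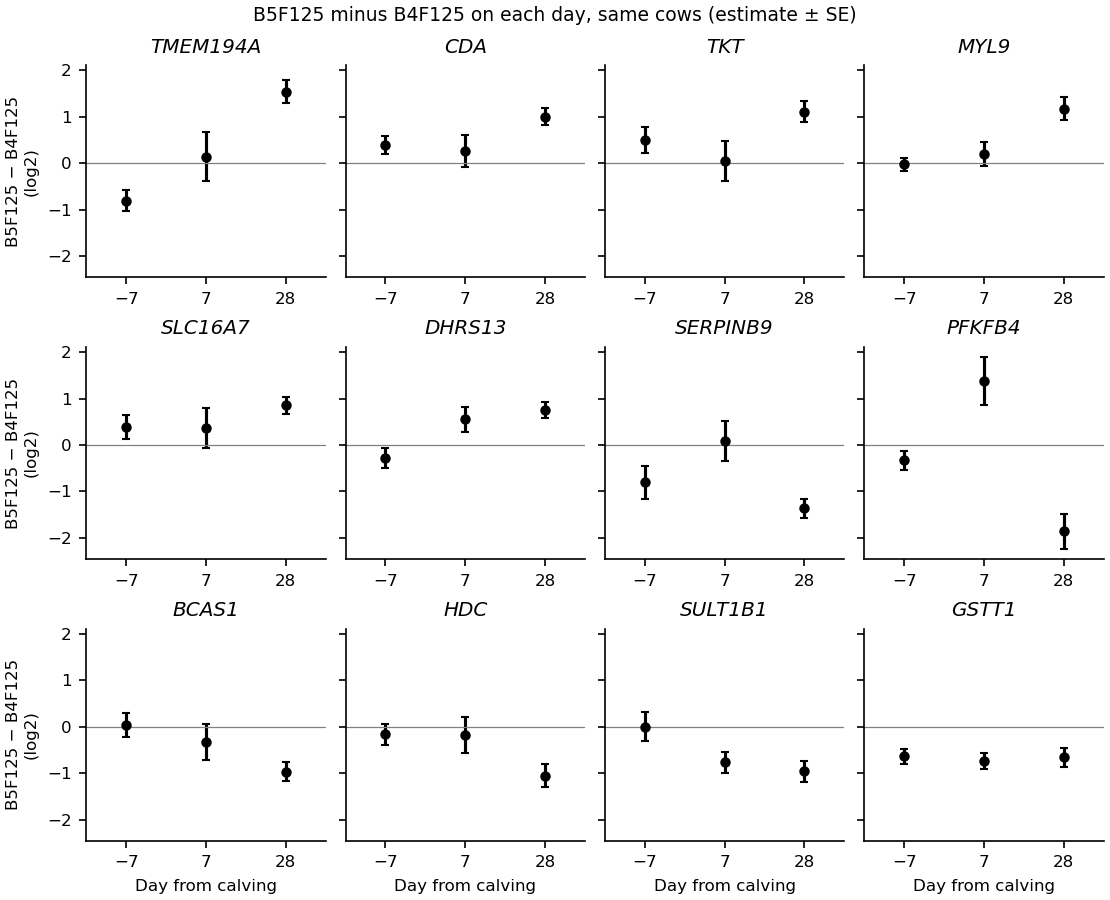
Log2 FC of B5F125 minus B4F125 (vertical axis) with its SE at −7, 7 and 28 d from calving (horizontal axis) for 12 genes. GSTT1 is between −0.74 and −0.63 on all days, whereas TMEM194A and PFKFB4 change side between days.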

How the data were processed

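Liver RNA of 32 cows was hybridised by the authors to 48 two-colour Agilent bovine arrays scanned with GenePix, 36 within a day and 12 across days. The deposited values are log2 ratios of the 2 channels of an array, 1 per spot, with substandard spots left blank by the authors. Lowess and array centring are named in the methods, but the medians of the 28 d arrays were 0.15 to 0.50 as deposited, so each array was centred on its median here. A Lowess shift would not leave 40.5% of the 28 d values at exact ratios of whole numbers. The deposited values therefore carry no such intensity-dependent dye correction, and none was made here. No genome build is given in the sources used here. Another deposited table served only to name the spots, since its 48 value columns match no label. Its gene names lack the digit 0. Through RefSeq symbols 462 names were restored, 353 on 1276 spots fitted several genes or had turned into dates and were left out, and 33391 spots kept 1 of 16275 names. Probes of a gene were averaged.

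The 4 group means and a dye term were fitted to the 12 arrays (limma 3.58.1, R 4.3.3), with 8 residual degrees of freedom and Benjamini-Hochberg adjustment over all genes on at least 9 arrays. The 3 days were fitted together on 36 arrays with cow pair as a random block (statmod 1.5.0, correlation 0.14) for genes on at least 27. The fits were tested on simulated data. P-values measure the spread between arrays that each hold 1 cow per group. Array number and signal, not read depth, limit the precision. A spot was counted as dim where its value was within 1e-08 of the log2 of a ratio of whole numbers up to 20.

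Named genes were the 10 DEG of smallest p in each direction with a gene name that is no LOC number, up to 4 DEG of each list, 18 index genes, and up to 2 members of smallest p of a described list without DEG. Some of these genes are not reported here. The comparison, the lists and the named-gene rule were chosen with earlier results of these data known, and support nothing by their choice. Alternatives changed the centring, the scaling, the dye term, the probe summary, the minimum of arrays, the moderation, the weights and the arrays used.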

Additional observations from a re-analysis of the deposited data

Results flagged for a closer look

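Among the named genes, 121 sets of 4 ratios against F75 cows were examined for a ratio far from the other 3 (Dixon's 95% critical value). Chance alone gives this in about 1 set in 20, and 9 sets held such a ratio. Each ratio has its own F75 partner cow and dye orientation, so an outlying ratio cannot be assigned to the B5F125 or B4F125 cow. PFKFB4 had its highest B4F125 ratio at 1.93, with the nearest at 0.82. FICD had its highest B5F125 ratio at 0.66, with the nearest at −0.14. ACOX2 had its lowest B4F125 ratio at −0.46 (nearest 0.56), INSR at −0.0123 (nearest 0.54), FGB at −0.51 (nearest 0.26) and GHR at −1.57 (nearest 0.64). ERG had its highest B4F125 ratio at 1.57 (nearest 0.40). THY1 had its lowest B5F125 ratio at −1.52 (nearest −0.33) and PC at −2.51 (nearest 0.34).

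PFKFB4 differed between days, with a change in the B5F125 minus B4F125 log2 FC from 7 to 28 d of −3.38 (SE 0.59, adjusted p = 0.0497, limma). Its values were mostly dim and it was measured on 11 of the 12 arrays at 28 d.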

How the results depend on the processing

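Every DEG count fell to 0 at an adjusted p below 0.05 (limma), except 1 for the change from 7 to 28 d. The 67 higher genes became 44 on values as deposited (of 135 DEG), 35 without moderation, 39 with 48 arrays and cow pair as a block, and 40 without dim spots, an alternative chosen after seeing the data. The 72 lower genes became 30 without moderation, 35 with 48 arrays and 114 with no minimum of arrays. Probe by probe, 139 were higher and 122 lower, of 26700 probes tested. Without dim spots 9436 genes were tested and with no minimum of arrays 15947, against 13990 in the main fit. These counts therefore do not compare like shares. Of the 139 DEG, 29 remained DEG with 48 arrays, 34 without dim spots and 58 of 108 with 36 arrays and the block. Leaving out 1 array gave 62 to 98 higher and 55 to 94 lower genes.

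The interaction count of 115 became 186 probe by probe, 73 without moderation, 56 without dim spots and 96 to 149 without 1 array. The 28 minus −7 d count of 100 became 63 without the dye term, 189 probe by probe, 60 with no block, 50 with 48 arrays, 61 without dim spots and 84 to 150 without 1 cow pair. The 28 minus 7 d count of 122 became 207 probe by probe, 79 with no block, 35 without dim spots and 113 to 165 without 1 cow pair. Probe by probe, 26700 probes were tested for the interaction and 25127 for the changes between days. Without dim spots 9436 and 9358 genes were tested, against 13990 and 13494 in the main fits. The counts of these settings therefore have other denominators, and the cause of the shifts was not tested.

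No paired analysis was possible because each cow pair was on 1 of the 12 arrays. None of the 31 named DEG changed sign under any of the alternatives that gave a value. Most alternatives reuse the arrays that chose these genes, so a kept sign is no separate support. The number of arrays and the dim spots limit what can be seen.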

Other observations

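The genes named here were picked after their values were seen. Of 17 genes of bile acid synthesis and transport 11 were above 0 in B5F125 relative to B4F125 at 28 d (median log2 FC 0.09), with values from −0.49 to 1.02, and the median was 0.22 on the direct arrays and −0.02 in the indirect estimate. The highest values were those of the sterol transporters ABCG8 (1.02, SE 0.38) and ABCG5 (0.75, SE 0.32), the basolateral bile acid exporter subunit OSTBETA (0.83, SE 0.32) and the bile salt export pump ABCB11 (0.72, SE 0.32). None was a DEG. Of 27 genes of glutathione, cysteine and taurine metabolism 17 were above 0 (median 0.09, direct −0.04, indirect 0.27), with GPX3, a secreted glutathione peroxidase, at 1.94 (SE 0.65) and CSAD, the decarboxylase of taurine synthesis, at 1.41 (SE 0.54), again with no DEG. Genes of the unfolded protein response were above 0 in 19 of 25 cases (median 0.13), but in 12 of 25 on the direct arrays (median −0.04). Genes of sphingolipid synthesis were above 0 in 15 of 19 cases (median 0.08), and in 9 of 19 on the direct arrays (median −0.0062).

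Genes of the respiratory chain were centred on 0 (19 of 39 above 0), but 5 of 39 were above 0 on the direct arrays and 28 of 39 in the estimate from the other 10 arrays, the same order of estimates as for the ribosomal protein genes. Neutrophil markers were above 0 in 11 of 15 genes at 28 d (median 0.10, direct −0.06, indirect 0.12) and in 11 of 14 at 7 d (median 0.49), and in 4 of 13 at −7 d (median −0.17).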
